A study of Mus musculus with 6 samples.

Results

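The RNA exosome is the protein complex that degrades RNA from its 3′ end. The mRNAs of 10 of its subunit genes were measured in white fat of mice that lack CNOT3 in their adipocytes. The genes were taken by symbol: 19 probe sets, out of 45037 on the array, carry the symbol of 1 of these genes and of no other gene. They stand for 10 of the 18193 genes that the array names singly. Whole epididymal white adipose tissue had been taken at 8 weeks of age from mice of strain C57BL/6, and each of the 6 mice was hybridised to 1 Affymetrix array. In the 3 CNOT3KO mice, Cnot3 was deleted by a Cre recombinase under the adiponectin promoter, whose activity is in adipocytes, so that the other cells of the fat pad keep the gene. The other 3 mice are labelled wild type (WT). Whether they carried the Cre transgene or a floxed allele is not given in the sources used here.

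CNOT3 is a core subunit of CCR4-NOT, the main enzyme complex that removes poly(A) tails from mRNAs. A deadenylated mRNA can then be decapped and degraded from its 5′ end, or be taken over at its 3′ end by the cytoplasmic exosome. The exosome has a barrel-shaped core: a ring of subunits related to bacterial RNase PH, which in mammals hold no activity of their own, lies under a cap of RNA-binding subunits. RNA is threaded through the barrel to the nuclease Dis3, and a further nuclease, Exosc10, sits at the cap side in the nucleus. In the nucleus and nucleolus the same core trims ribosomal RNA precursors and removes faulty or unstable transcripts.

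Subunits of the ring had the steepest rises. Exosc7 and Exosc4, both ring subunits, rose 2.21-fold and 2.01-fold in CNOT3KO fat, and Exosc2, of the cap, and Exosc8, of the ring, rose 1.46-fold and 1.41-fold. The cap subunits Exosc1 and Exosc3, the ring subunits Exosc5 and Exosc9 and the nucleases Exosc10 and Dis3 did not pass the test, with values between 1.10-fold and 1.29-fold of WT. Thus 4 of 10 members were called higher and 0 lower, by limma at a Benjamini-Hochberg adjusted p under 0.05 over all 12769 genes tested. Over all tested genes 23.2% were called higher and 16.9% lower. Without adjustment, a limma p under 0.05 was reached by 6 members in the higher and 0 in the lower direction. Over all 12769 tested genes it was reached by 3506 in the higher and 2700 in the lower direction. The median log2 difference of the members, CNOT3KO minus WT, was 0.32, beside 0.02 over all tested genes, and all 10 differences were above 0, beside 52.0% of those of all tested genes. Of all calls over the tested genes 57.8% were higher, and 45.3% were once the arrays had been aligned at the median of the tested genes. Of the members 4 were still called higher under that scaling, beside 18.2% of all tested genes higher and 21.9% lower. The median of the members was then 0.22 beside -0.07 for all genes. Fold values throughout are powers of 2 of differences in log2(signal + 22.5), where 22.5 is the 25th percentile of all signals, and all 10 members were bright enough to be tested.

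Upstream sequences are shown for 3 of the 4 members that rose together, from RefSeq, build GRCm38.p6. Of the 10 members 8 had an entry in the promoter table, and Exosc4 and Exosc9 did not. Each run covers the 250 bases before the annotated start of transcription, 5′ to 3′ on the gene's strand, and capitals mark a match on either strand to the GC box (GGGCGG) or the CCAAT box (CCAAT). The Exosc7 window is chr9:123112981-123113230 on the plus strand, that of Exosc2 is chr2:31670465-31670714 on the plus strand, and that of Exosc8 is chr3:54735365-54735614 on the minus strand.
Exosc7: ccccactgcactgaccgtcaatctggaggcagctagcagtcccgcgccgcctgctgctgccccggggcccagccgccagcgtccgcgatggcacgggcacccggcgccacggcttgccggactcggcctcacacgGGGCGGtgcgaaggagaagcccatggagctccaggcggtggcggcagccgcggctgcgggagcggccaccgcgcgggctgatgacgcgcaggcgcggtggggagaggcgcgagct
Exosc2: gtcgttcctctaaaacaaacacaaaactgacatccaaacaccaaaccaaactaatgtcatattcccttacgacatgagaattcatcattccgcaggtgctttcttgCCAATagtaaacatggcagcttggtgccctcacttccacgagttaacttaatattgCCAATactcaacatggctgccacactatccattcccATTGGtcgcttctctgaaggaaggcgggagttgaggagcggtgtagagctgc
Exosc8: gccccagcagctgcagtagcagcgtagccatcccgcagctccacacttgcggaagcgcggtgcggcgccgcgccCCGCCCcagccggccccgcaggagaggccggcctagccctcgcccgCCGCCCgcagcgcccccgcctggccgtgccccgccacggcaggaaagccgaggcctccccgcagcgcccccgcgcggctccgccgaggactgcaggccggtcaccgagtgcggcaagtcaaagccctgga
The Exosc7 window is 76.0% and the Exosc8 window 78.0% G or C, and the Exosc2 window is 45.6%, beside a median of 52.4% over all 32851 promoter windows of the table. Exosc7 holds 1 GC box and Exosc8 holds 2, while Exosc2 holds none and has 3 CCAAT boxes. Over the 8 matched members, 6 had a GC box (Exosc1, Exosc3, Exosc5, Exosc7, Exosc8 and Dis3) and 4 a CCAAT box (Exosc1, Exosc2, Exosc5 and Dis3), beside 32.7% and 33.8% of all windows. The E-box CACGTG was found in Exosc5 and in 6.02% of all windows. The ETS core CCGGAAG was found in Exosc10 and Dis3 and in 6.91% of all windows. The 8 matched members had 9 windows, and a member was counted where any of its windows held the motif. The percentages are of windows and not of genes. Matches that overlap each other were counted separately, and none of the 4 motifs was found in all 3 windows shown.

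The cap subunits bind RNA at the entry of the barrel. Exosc2, which carries RNA-binding folds of the S1 and KH types, had signals of 481, 502 and 539 in CNOT3KO mice 1, 2 and 3, against 312, 351 and 358 in WT mice 1, 2 and 3. All CNOT3KO arrays lay above all WT arrays, and the log2 difference was 0.55 (SE 0.12, limma adjusted p = 0.00618). A dimmer Exosc2 probe set was below the level needed for a test, at 1.68, 30.8 and 24.3 in CNOT3KO and 2.85, 1.69 and 1.22 in WT. Exosc3, another S1 and KH protein of the cap, read 412, 318 and 446 in CNOT3KO and 311, 285 and 394 in WT, with overlapping groups. Its log2 difference was 0.23, with a 95% confidence interval from -0.15 to 0.61. Exosc1, which together with Exosc2 and Exosc3 completes the cap, averaged 1078 ± 150.1 in CNOT3KO and 974 ± 76.0 in WT (SD, n = 3 each), a difference of 0.14 with an interval from -0.15 to 0.42. The other probe sets of Exosc1 gave 0.02 and -0.22, neither of them called. Intervals here and below are for each gene alone, with no adjustment for the number of genes.

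The ring is built from Exosc4 to Exosc9, and it held the largest differences. Exosc7 read 1629, 1547 and 2170.4 in CNOT3KO mice, against 729, 787 and 841 in WT mice. The lowest CNOT3KO array thus lay well above the highest WT array, and the log2 difference was 1.15 (SE 0.14, limma adjusted p = 0.00026), which was above that of 95.2% of the tested genes. Exosc7 has 1 probe set, so no other probe set bears on it. Exosc4 read 1661, 1500.2 and 1952 in CNOT3KO and 907, 767 and 820 in WT, again with separate groups, and its log2 difference was 1.01 (SE 0.13, limma adjusted p = 0.000283). The 95% interval of Exosc7, from 0.83 to 1.46, lay above the intervals of all members but Exosc4, and that of Exosc4 ran from 0.73 to 1.29. The difference between members was not tested.

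Exosc8, another ring subunit, read 1187, 1006 and 1239 in CNOT3KO and 675, 901 and 839.9 in WT. The groups did not overlap, and the log2 difference was 0.50 (SE 0.14, limma adjusted p = 0.0171). This call was lost without CNOT3KO mouse 1 (0.47, adjusted p = 0.0669) or 3 (0.44, 0.0503) and without WT mouse 1 (0.38, 0.0515), all by limma. Exosc5 averaged 912 ± 149.2 in CNOT3KO and 700.4 ± 60.7 in WT (SD, n = 3 each). Its groups did not overlap either, but the difference of 0.36 did not pass (limma adjusted p = 0.0615), although it did without CNOT3KO mouse 2 (0.44, adjusted p = 0.0498). Without CNOT3KO mouse 3 it was 0.23 (limma adjusted p = 0.179) and without WT mouse 2 it was 0.30 (0.190). Exosc9 averaged 1271 ± 100.4 in CNOT3KO and 1094 ± 112.0 in WT (SD, n = 3 each), with overlapping groups and a difference of 0.21 (interval -0.05 to 0.48). Exosc6, the remaining ring gene, is not among the 10 members. Its single-gene probe set, looked up after the other values were seen, was too dim to test, at 11.8, 12.4 and 9.90 in CNOT3KO and 62.3, 11.5 and 29.7 in WT.

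Neither nuclease of the core passed the test. Exosc10, the nuclear enzyme, read 1003, 1069.7 and 1147 in CNOT3KO and 898, 868 and 867 in WT. The groups were separate, yet the log2 difference of 0.28 (SE 0.10) did not pass (limma adjusted p = 0.0555). Dis3, the nuclease at the bottom of the barrel, read 457, 416 and 611 in CNOT3KO and 412, 449 and 474 in WT. Its groups overlapped, its difference was 0.13 with an interval from -0.22 to 0.48, and without CNOT3KO mouse 3 it was -0.02. In all, 6 of the 10 members had every CNOT3KO array above every WT array (Exosc2, Exosc4, Exosc5, Exosc7, Exosc8 and Exosc10) and none had the reverse, beside 29.0% and 22.7% of all tested genes.

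**Figure D1:**
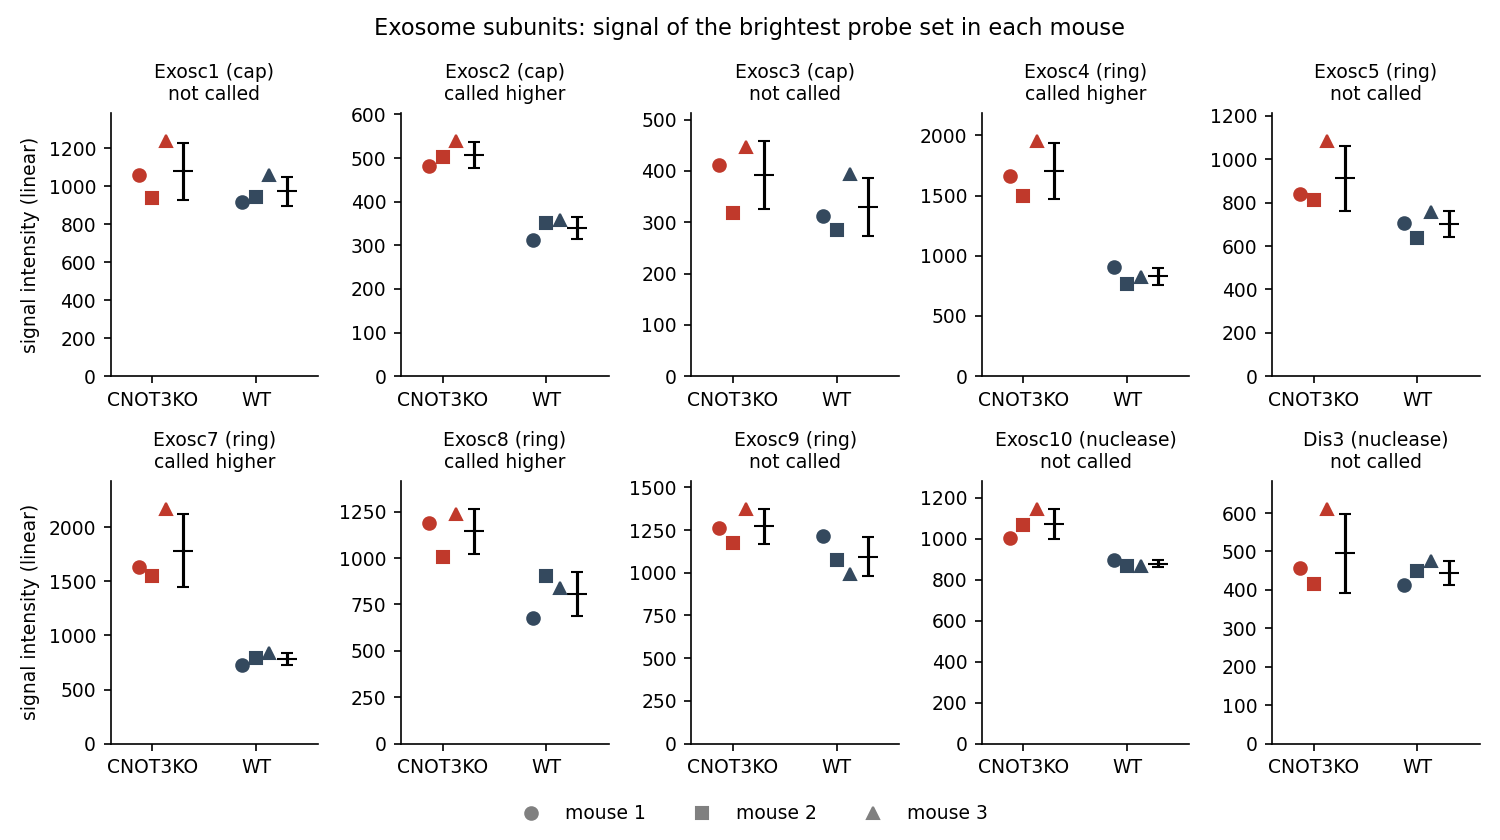
Linear signal intensity (vertical axes, each from 0) of the brightest probe set of each exosome subunit in the 3 CNOT3KO mice (red, left) and 3 WT mice (dark, right), with the mean and SD of each group in black. The triangle of CNOT3KO mouse 3 is the highest red point in all 10 panels, and the groups are furthest apart for Exosc7 and Exosc4.

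One mouse stood out in these signals. CNOT3KO mouse 3 had the highest value of its group for all 10 members, and CNOT3KO mouse 2 the lowest for 8. The array of mouse 3 lay above the highest WT array for 10 of 10 members, that of mouse 1 for 8 and that of mouse 2 for 6. Without mouse 3 the median log2 difference of the members was 0.23 in place of 0.32, with 9 of 10 above 0 and 3 called higher. In that setting 21% of all tested genes were called higher, and the median of all tested genes was 0.03. Within WT no mouse was highest for more than 6 members. The summed signal of 10 macrophage markers was 55580.4, 61489 and 42741 in CNOT3KO mice 1, 2 and 3, so that mouse 3 was the lowest and mouse 2 the highest. In WT mice it was 25239, 22123 and 27704. The summed signal of 8 adipocyte markers was 106011, 105011 and 127669 in CNOT3KO mice 1, 2 and 3, and between 119978 and 151162 in WT. That of the 10 members was 9990, 9287 and 11800 in the same CNOT3KO mice, and between 7063 and 7404 in WT. In CNOT3KO mice 1, 2 and 3 the sums were 9924, 11059.9 and 10323 for cell cycle genes and 3548, 4381 and 3631 for endothelial markers. In both of these lists mouse 3 lay between the others. The median signal of the whole array was lowest in CNOT3KO mouse 3, at 82.1, beside 85.8 in mouse 1 and 88.0 in mouse 2. Whether any of these orders bears on the exosome values was not tested.

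Marker mRNAs of several cell types differed between the genotypes, and these values stand beside every difference given here. Over all tested genes 23.2% were called higher and 16.9% lower. Of 10 macrophage markers 8 were called higher and 0 lower (median log2 difference 1.003). Their differences ran from -0.71 to 4.51, with 9 above 0, and 1 marker had every CNOT3KO array below every WT array. Of 9 measured genes of the cell cycle 8 rose and 0 fell (median 1.62), with a summed signal from 9924 to 11059.9 in CNOT3KO and from 5059.7 to 5782 in WT. All 8 endothelial markers fell (median -1.14), with sums from 3548 to 4381 in CNOT3KO and from 9110.5 to 10505 in WT. Of 8 measured adipocyte markers 2 fell and 0 rose (median -0.19), with differences from -1.25 to -0.02 and 0 above 0. All 8 were bright enough to be tested in this fat tissue. The part of such shifts in the exosome values was not tested. In whole tissue, more cells of a type and more RNA per cell cannot be told apart. Cnot3 itself read 201 ± 25.6 in CNOT3KO and 301 ± 7.02 in WT (SD, n = 3 each) by the probe set that stands for it. Its fall there (log2 -0.54, limma adjusted p = 0.0131) goes with the labels. The other Cnot3 probe set was about as bright, with a mean signal of 245 beside 251. It read 227 ± 24.1 in CNOT3KO and 264 ± 47.7 in WT (SD, n = 3 each), with overlapping groups. Tested singly, its difference of -0.19 was not called (limma adjusted p = 0.410). The check of the labels by Cnot3 thus rests on 1 probe set.

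Where a member had several probe sets, they did not always move alike. Of the 18 tested probe sets 6 were called higher and 0 lower when every probe set of the array was tested singly, beside 16.8% higher and 19.1% lower over all 27022 tested. At an unadjusted limma p under 0.05 there were 9 higher and 0 lower, beside 5671 higher and 6755 lower of all 27022 tested. Their median log2 difference was 0.26, beside -0.06 over all tested probe sets. The 8 tested probe sets that did not stand for a gene held 5 values above 0, and 2 of them were called higher.

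For Exosc4, a dimmer probe set read 399, 387 and 493 in CNOT3KO and 162, 219 and 186 in WT, and was called higher (log2 1.09, limma adjusted p = 0.000785). Its name ends in _x_at, the suffix for sets that may cross-hybridise. The remaining Exosc4 probe set read 693, 741 and 744 in CNOT3KO and 701, 540.03 and 649.8 in WT. Its groups overlapped and its difference of 0.20 (interval -0.09 to 0.49) did not pass. With all probe sets of the gene averaged, Exosc4 still rose by 0.77 on the log2 scale.

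Exosc8 had probe sets of opposite sign. The dimmer one read 379.6, 385 and 314 in CNOT3KO and 449, 451 and 386 in WT, with every CNOT3KO array below every WT array and a log2 difference of -0.24 that was not called (limma adjusted p = 0.202). With both averaged, the difference of Exosc8 was 0.13 and was no longer called. For Exosc10, the probe set with the suffix _x_at was called higher (810.4, 822 and 763 in CNOT3KO against 693, 602 and 492 in WT; log2 0.42, limma adjusted p = 0.0406). A further Exosc10 probe set gave 0.29, also with separate groups and without a call. The last Exosc10 probe set, whose name ends in plain _at, was dim, at 124, 158 and 129 in CNOT3KO and 162, 162 and 120.01 in WT, and gave -0.09. The positions of these probe sets within the transcripts were not analysed here.

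**Figure D2:**
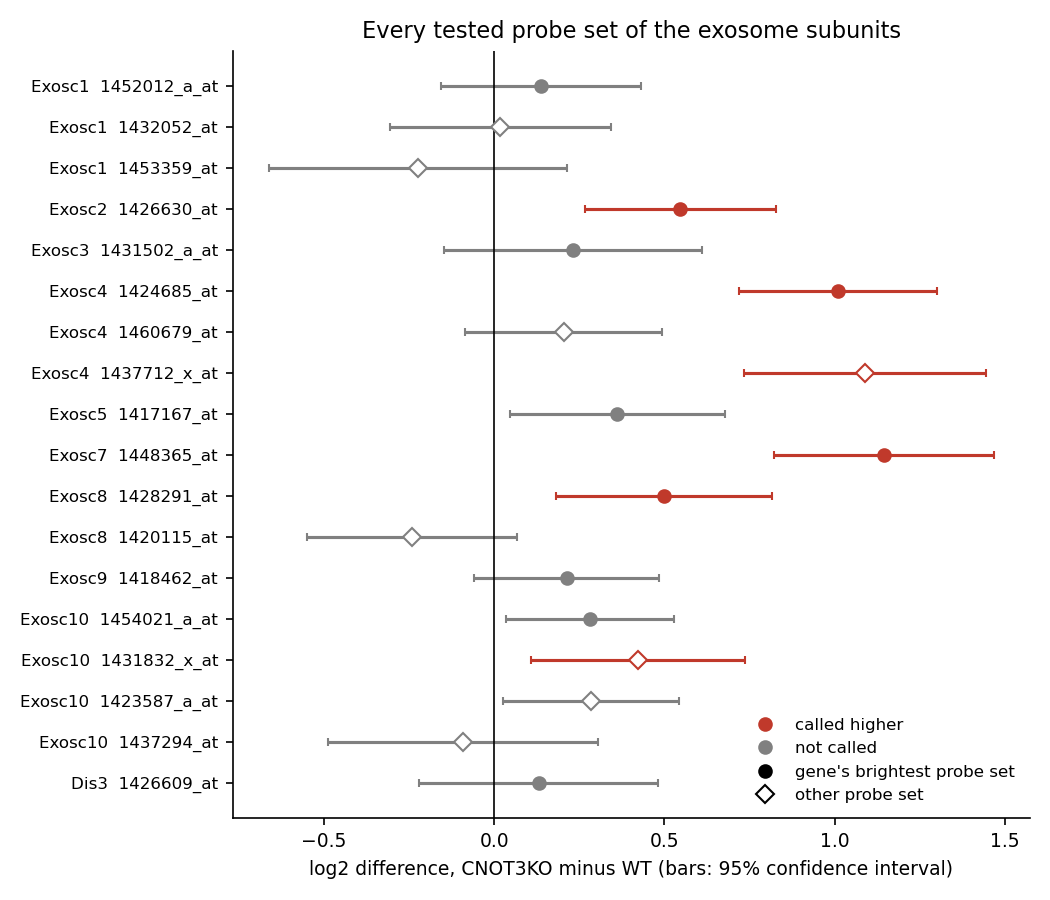
Log2 difference, CNOT3KO minus WT (horizontal axis), with its 95% confidence interval for each of the 18 tested probe sets of the exosome subunits, 3 mice per group. Filled circles are the brightest probe set of a gene and open diamonds the others, with red for those called higher. The 2 red Exosc4 sets and the Exosc7 set lie near 1, while the 2 Exosc8 sets lie on opposite sides of 0.

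The rises held up unequally when the processing was changed. Exosc2, Exosc4 and Exosc7 kept their call under all 19 alternatives, 6 of which left out 1 mouse each. Their log2 differences ranged from 0.45 to 0.62 for Exosc2, from 0.77 to 1.10 for Exosc4 and from 0.9965 to 1.24 for Exosc7. Exosc8 kept its call in 15 of 19, and its values ranged from 0.13 to 0.59. Exosc1, Exosc3, Exosc9 and Dis3 were not called under any of the 19.

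**Figure D3:**
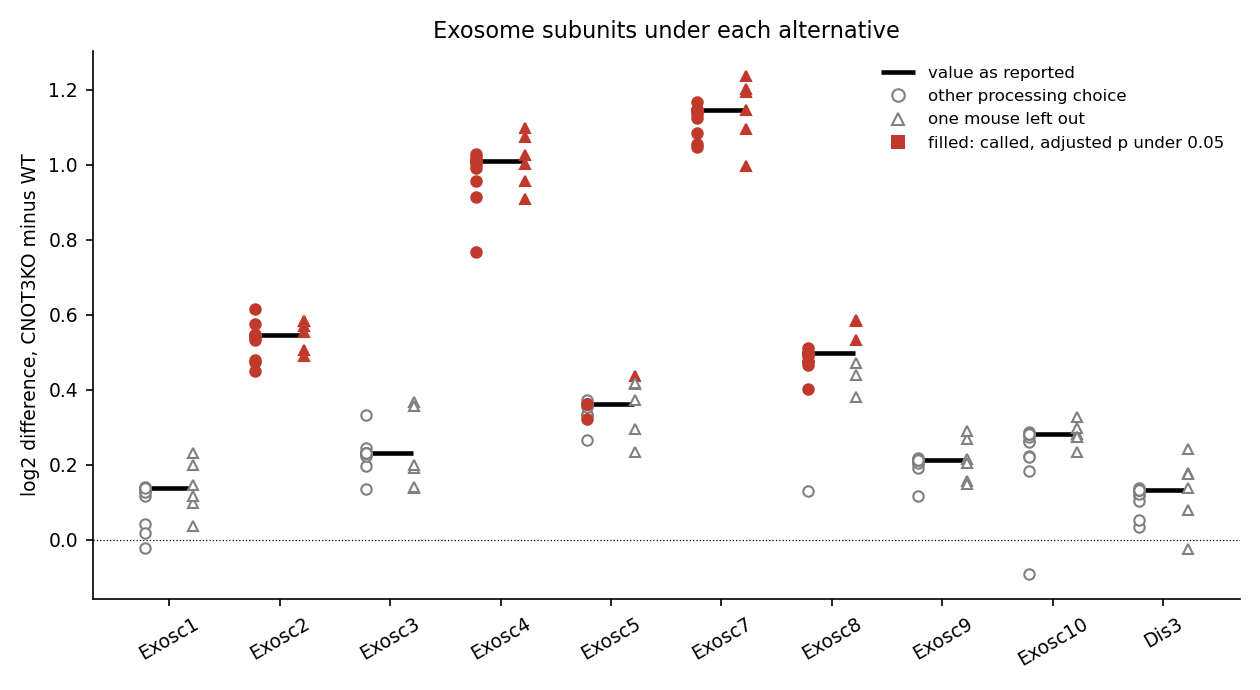
Log2 difference, CNOT3KO minus WT (vertical axis), of each exosome subunit as reported (black bar), under 13 other processing choices (circles) and with 1 mouse left out (triangles). Filled red symbols passed an adjusted p of 0.05, as all symbols of Exosc2, Exosc4 and Exosc7 did.

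Cofactors that feed RNA to the exosome were split between rises and falls. Of 24 tested cofactors 4 rose and 4 fell, 16.7% in each direction, beside 23.2% higher and 16.9% lower over all tested genes. Their median log2 difference was -0.04. The cytoplasmic exosome works with the Ski complex, a helicase and its partners. The helicase gene Skiv2l averaged 511 ± 100.9 in CNOT3KO and 516 ± 25.1 in WT, and its scaffold Ttc37 646 ± 63.9 and 759 ± 115.6 (SD, n = 3 each). Neither passed, with differences of -0.03 (interval -0.36 to 0.30) and -0.22 (interval -0.54 to 0.10). Wdr61, the third Ski subunit, which also belongs to the PAF complex of transcription, rose 1.61-fold (4822 ± 292 in CNOT3KO and 2994 ± 232 in WT, SD, n = 3 each; limma adjusted p = 0.000779), but gave a log2 difference of 0.11, not called, with all its probe sets averaged. Hbs1l, a splice form of which links the Ski complex to the exosome, was lower by its brightest probe set (log2 -0.36) and read 0.06 with all probe sets averaged. Its call was also lost without CNOT3KO mouse 1 (-0.35) or 3 (-0.28) or WT mouse 1 (-0.31) or 2 (-0.35).

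In the nucleus, the helicase Mtrex opens RNA for the exosome. Mtrex rose 1.39-fold (1973 ± 65.5 in CNOT3KO and 1412 ± 90.7 in WT, SD, n = 3 each; limma adjusted p = 0.00452), and read 0.19 on the log2 scale, not called, with all its probe sets averaged. Of 3 measured genes for its partners in the TRAMP complex, which tags RNA with short tails, 2 fell and Tent4a was not called. Tent4b, the poly(A) polymerase of TRAMP, averaged 1027 ± 12.4 in CNOT3KO and 1314 ± 29.5 in WT (log2 -0.35, limma adjusted p = 0.0169), and Zcchc7, its RNA-binding subunit, 983 ± 170.4 and 1368 ± 123 (log2 -0.48, limma adjusted p = 0.0244; SD, n = 3 each). Tent4a, a relative of Tent4b, averaged 393 ± 32.1 in CNOT3KO and 442 ± 47.5 in WT (SD, n = 3 each), with overlapping groups and a log2 difference of -0.16 (limma adjusted p = 0.369). Tent4b lost its call without CNOT3KO mouse 1 (-0.35) or WT mouse 2 (-0.34), and Zcchc7 without CNOT3KO mouse 3 (-0.33) or WT mouse 2 (-0.41). Nrde2, a nuclear protein that binds Mtrex, rose 1.62-fold, and Ncbp2, a subunit of the nuclear cap-binding complex, fell to 0.638 of WT, both under all 19 alternatives. The brightest uncalled cofactors were Pabpn1, the nuclear poly(A)-binding protein of the PAXT connection, at -0.18, and Rbm7, of the NEXT complex, at 0.13. Pabpn1 was called lower with another probe set in place of its _a_at set (-0.82), with all its probe sets averaged (-0.42) and with array weights (-0.32).

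Dis3l and Dis3l2, relatives of Dis3, were named for their roles. Dis3l, the nuclease of the cytoplasmic exosome, averaged 420 ± 32.0 in CNOT3KO and 299 ± 74.9 in WT (SD, n = 3 each). Its difference of 0.49 did not pass (limma adjusted p = 0.0588), although it did without WT mouse 1 (0.61, adjusted p = 0.0389). Without WT mouse 3 it was 0.28 (limma adjusted p = 0.162). Dis3l2, which degrades uridylated RNA without the exosome core, gave -0.17 and did not pass. Tut4, one of the enzymes that add uridines to RNA ends, was called higher (log2 0.31, limma adjusted p = 0.0477), a call that was lost under 12 of 19 alternatives. Among these were the ones that left out any 1 CNOT3KO mouse (0.28 to 0.34) or WT mouse 1 (0.28) or 3 (0.28). The count of 4 lower cofactors became 2 without CNOT3KO mouse 1 or 3 and 1 without WT mouse 2. Of all tested genes 12.7%, 14.9% and 12.2% were called lower in these settings.

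Factors of ribosomal RNA processing, the pathway in which the nuclear exosome trims precursors, mostly lay on the higher side. Of 34 tested 14 rose (41.2%) and 1 fell, beside 23.2% and 16.9% of all tested genes. The median log2 difference was 0.31, and 26 of the 34 values were above 0. Whether these shares differ from those of all genes was not tested. In the small subunit processome 7 of 13 rose: Nop14 1.73-fold, Wdr43 1.69-fold, Utp18 1.65-fold, Utp6 1.64-fold, Utp3 1.38-fold, Utp20 1.37-fold and Heatr1 1.29-fold. Utp18, whose yeast counterpart recruits the exosome helicase, averaged 1426 ± 74.8 in CNOT3KO and 855 ± 85.4 in WT (SD, n = 3 each), but read -0.04 on the log2 scale with all probe sets averaged. Among the large subunit assembly factors 6 of 12 rose. Wdr12, Pes1 and Bop1, which together form the PeBoW complex, rose 1.84-fold, 1.37-fold and 1.26-fold, Gnl2 1.54-fold, Rrp1 1.47-fold and Nop16 1.43-fold. With all probe sets averaged, Wdr12 (0.26), Pes1 (0.31) and Gnl2 (0.14) were no longer called, and Bop1 read -0.42, also not called.

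Of 8 snoRNP and nucleolar proteins 1 rose and 1 fell, beside 23.2% higher and 16.9% lower over all tested genes. The median log2 difference of these 8 was -0.02. Nhp2 and Dkc1, subunits of the same class of snoRNP, went opposite ways: Nhp2 rose 1.39-fold and Dkc1 fell to 0.766 of WT. With probe sets ending in _s_at, _x_at, _a_at or _i_at avoided, Nhp2 read 0.31 and was no longer called (limma adjusted p = 0.0572). Of the brightest uncalled factors, Npm1, a nucleolar chaperone, read 0.26, Ncl, nucleolin, -0.08 and Imp3, of the small subunit processome, -0.15 on the log2 scale. Bop1 lost its call without any 1 of the 6 mice (0.28 to 0.39), and Heatr1 without any 1 CNOT3KO mouse (0.36 to 0.37) or WT mouse 1 (0.29) or 2 (0.38). Nop16 lost its call without CNOT3KO mouse 1 (0.503) or 3 (0.49) or WT mouse 2 (0.39) or 3 (0.47). Utp20 lost it without CNOT3KO mouse 1 (0.41) or 3 (0.39) or WT mouse 1 (0.36) or 2 (0.49), and Dkc1 without any 1 CNOT3KO mouse (-0.41 to -0.37) or WT mouse 2 (-0.35) or 3 (-0.31).

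**Figure D4:**
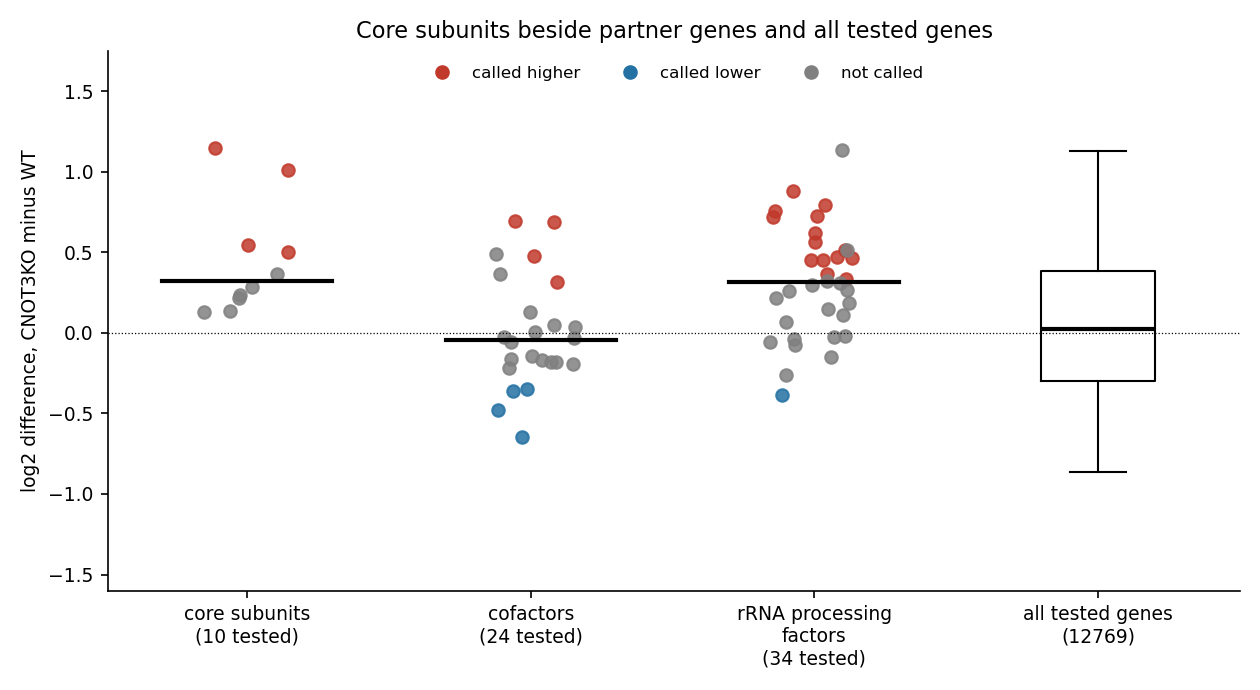
Log2 difference, CNOT3KO minus WT (vertical axis), of each tested core subunit, cofactor and ribosomal RNA processing factor, with list medians as black lines, beside all 12769 tested genes (box, quartiles; whiskers, 5th to 95th percentile). All 10 core subunits lie above 0, with a median of 0.32 beside -0.04 for the cofactors and 0.31 for the processing factors.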

How the data were processed

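Signal intensities, 1 per probe set and array on a linear scale, were deposited by the authors. Per the submitters' processing notes they come from MAS5, with settings not given in the sources used here. Labelling started from 500 ng of total RNA, per the labels' protocols. Means trimmed by 2% at each end differed by at most 0.0701% between arrays, a quantity that MAS5 global scaling fixes where it is used. Array medians lay between 82.1 and 88.0 in CNOT3KO and between 91.9 and 92.9 in WT.

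Groups and mouse numbers came from the sample titles, where each title is its own mouse. Genes were named by the platform annotation, from the 34945 probe sets with 1 symbol. Each gene was represented by its probe set with the highest mean signal, and 5424 genes dimmer than the 40th percentile of probe set means (51.6) were left untested. limma (version 3.58.1, R 4.3.3) was run on log2(signal + 22.5) across all tested genes with a trended eBayes, two-sided, with Benjamini-Hochberg adjusted p under 0.05. It was also run across all 27022 probe sets above the same level, and was tested on simulated data. With 3 mice per group the precision is limited by the number of arrays. A gene has 4 residual degrees of freedom of its own, to which eBayes adds information from the other genes.

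The members and gene lists were chosen with earlier results of these data known. Every member was named, with every called gene of the cofactor and ribosomal RNA processing lists and the brightest uncalled ones. Skiv2l, Ttc37, Dis3l, Dis3l2 and Exosc6 were named for their roles. Of the list genes, Ccnb1, Plin1 and Cfd had no probe set naming that gene alone and were not analysed here, and Zc3h3 was too dim to test. Figures were drawn with matplotlib 3.10.9 in Python 3.11.15.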

Additional observations from a re-analysis of the deposited data

How the results depend on the processing

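Of 190 values of the 10 subunits under 19 alternatives, 179 kept their direction and their side of the threshold, 4 lost a call, 4 gained one and 3 changed sign. The sign changes were of uncalled values: Exosc1 with the mean of all probe sets (-0.0225), Exosc10 with the suffixes _s_at, _x_at, _a_at and _i_at avoided (-0.0924), and Dis3, whose values with 1 mouse left out ran from -0.0239 to 0.24. The count of subunits called higher was between 3 and 5 with 1 mouse left out, beside 17.2% to 21% of all tested genes. Exosc10 passed with the filter at the 60th percentile (adjusted p = 0.0468) and Exosc5 with array weights (adjusted p = 0.0289), both by limma.

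With the mean of all probe sets, 3 subunits, 1 cofactor and 9 ribosomal RNA processing factors were called higher, against 4, 4 and 14. Of all tested genes 19.2% were called higher there. The sign also turned there for Hbs1l (0.0593), Dis3l2 (0.0645), Utp18 (-0.0408), Heatr1 (-0.00222), Bop1 (-0.42) and Ncl (0.0535). Hbs1l, whose set is an _a_at set, read 0.31 with those suffixes avoided. Skiv2l ran from -0.18 to 0.0596 with 1 mouse left out. Lower calls numbered 2 cofactors when arrays were centred on ribosomal protein genes and 1 to 4 with 1 mouse left out. Of all tested genes 14.1% and 12.2% to 15.5% were called lower in these settings. The 1 lower processing factor became 0 without the trend, and 0 or 1 with 1 mouse left out. The cause was not tested in any of these cases.

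With the mouse number as a replicate block, Exosc5 passed (log2 0.36, limma adjusted p = 0.0415), Bop1 and Tut4 lost their calls (adjusted p = 0.0596 and 0.0741), and 2910 genes were called higher and 2182 lower. Deviations from the group means correlated across genes at 0.07, 0.11 and 0.04 between mice of the same number. Each mouse correlated best with its own number. These values are small, and they depend on each other, since deviations within a group cancel out. They cannot show whether mice of the same number belong together. The design states no pairs, so the samples were not treated as paired. Signals near the offset of 22.5 are noisy on the log2 scale, which limits what the dim probe sets of Exosc2 and Exosc6 can show.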
